A study of Caenorhabditis elegans with 6 samples.

Results

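The proteasome genes of Caenorhabditis elegans were followed in whole animals exposed to ethyl carbamate. They comprise 34 of the 21951 genes in the deposited count table: the 14 genes of the 20S core (pas-1 to pas-7 and pbs-1 to pbs-7), 17 genes of the 19S cap (rpt-1 to rpt-6 and 11 rpn genes), and png-1, ddi-1 and aip-1, which serve the recovery of proteasome capacity. They were chosen by gene identifier, and all 34 identifiers carried these symbols in RefSeq. Poly(A)-selected RNA was sequenced from gravid young adults of wild-type genotype, 3 libraries from animals given 100 mM ethyl carbamate for 24 h and 3 from control animals. The labels name no strain, the prefix EV that stands in the control titles and in all library names is not explained in the sources used here, and RNA came from whole animals, so that tissues are mixed. Ethyl carbamate (urethane) is an ester of carbamic acid found in fermented food and drink. The comparison asks how the exposure changes transcript levels.

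The proteasome degrades proteins marked with ubiquitin. Its 20S core is a barrel of stacked rings, in which the alpha subunits (pas genes) form the outer rings and gate the entry, and the beta subunits (pbs genes) form the inner rings and hold the proteolytic sites. The 19S cap binds, unfolds and deubiquitinates substrates: its base carries a ring of ATPases (rpt genes), and its lid holds the deubiquitinase RPN-11. In C. elegans, SKN-1A, a membrane-bound form of the transcription factor SKN-1, is deglycosylated by PNG-1 and cut by DDI-1. When proteasome function is impaired, SKN-1A raises the expression of subunit genes.

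The ethyl carbamate libraries held 20176242 to 21258740 gene counts and the control libraries 19026133 to 22416213. Each member had 1008 to 12668 reads in every library, and all 34 passed the filter on low counts. Values are given as CPM, read counts brought to a common library size that was scaled by the trimmed mean of M values (TMM), and fold changes and adjusted p-values come from edgeR's quasi-likelihood test with Benjamini-Hochberg adjustment over 14705 tested genes. A gene with an adjusted p under 0.05 is said to have risen or fallen. Whole-animal RNA mixes tissues, so fewer cells of a type and less RNA per cell cannot be told apart.

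All 31 subunit genes fell in ethyl carbamate, in a narrow range of log2 fold changes between −1.11 and −0.60, with a median of −0.86. The median subunit gene stood at 55.0% of its control level. Of all tested genes, 36.3% fell and 40.0% rose, and their median log2 fold change was 0.05. Adjusted p-values of the 31 genes (edgeR) lay between 6.95e-16 and 9.28e-12, and standard errors of the log2 fold changes between 0.04 and 0.05. The 3 exposed libraries lay below the 3 control libraries for each of the 31 genes, as they did for 37.1% of tested genes. Together the subunit genes took 0.635%, 0.639% and 0.644% of all gene counts in the ethyl carbamate libraries, against 1.01%, 1.00% and 0.985% in the control libraries. Of the 31 genes, 2 fell at least 2-fold, pbs-7 and rpn-7, and 3.34% of tested genes fell that far. This count depended on the scaling. With libraries scaled by size only, neither gene reached 2-fold (log2 fold changes −0.92 and −0.81). In the authors' deposited values pas-2 (−1.04) and pas-3 (−1.01) also fell more than 2-fold.

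**Figure D1:**
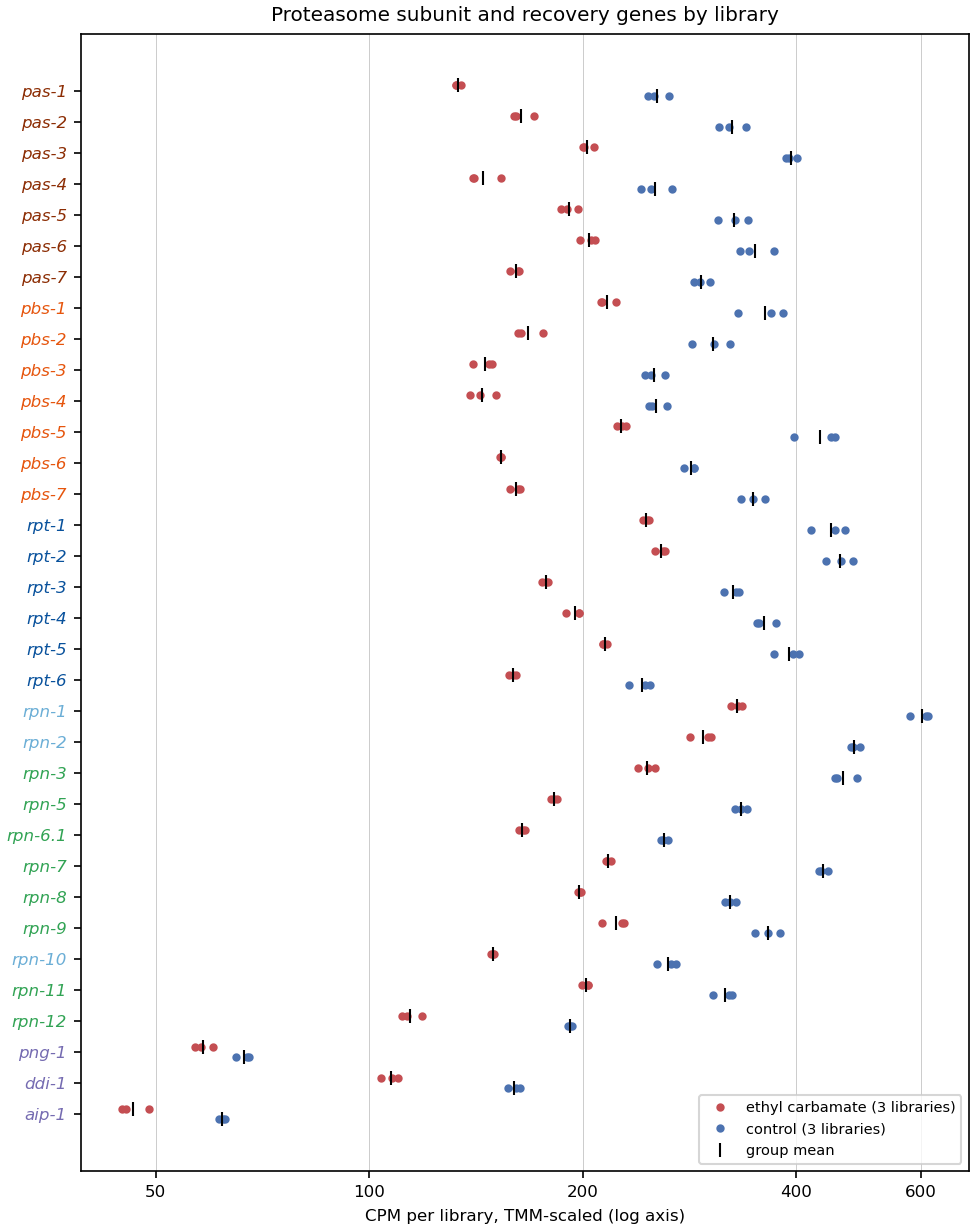
CPM of each member (horizontal log axis) in the 3 ethyl carbamate libraries (red, upper points) and the 3 control libraries (blue, lower points), with group means as black ticks and gene names coloured by their place in the complex. Red points lie left of blue points in every row, by the widest margin for pbs-7 and by the narrowest for png-1.

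All 7 alpha-ring genes, whose products gate the entry to the core, fell, with a median log2 fold change of −0.87. The gene pas-2 (D1054.2, chromosome V, 10770321 to 10771352 in the deposited table) had 160, 171 and 161 CPM in ethyl carbamate, against 340, 322 and 311 CPM in control. Every exposed library was far below the lowest control library. The fall was 1.98-fold (log2 fold change −0.98, SE 0.04, edgeR adjusted p = 1.2e-14). The genes pas-3 and pas-1 came next with falls of 1.94-fold and 1.91-fold. The smallest falls in this ring were those of pas-5 and pas-6, both 1.71-fold. For pas-5 (F25H2.9, chromosome I, 10566348 to 10567300) the exposed libraries had 197, 186 and 190 CPM and the control libraries 342, 328 and 311 CPM. Between these extremes, pas-7 fell 1.83-fold and pas-4 fell 1.74-fold.

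All 7 beta-ring genes fell too, with a median of −0.86. The subunit of pbs-7 (F39H11.5, chromosome I, 8695203 to 8696376), which is not proteolytic, belongs to the inner ring. Its gene showed the largest fall among the 34 members, with 162, 158 and 163 CPM in ethyl carbamate against 362, 348 and 334 CPM in control. This 2.16-fold fall (log2 fold change −1.11, SE 0.04, edgeR adjusted p = 6.95e-16) separated the groups by more than the spread within either. Of the genes of the 3 proteolytic subunits, pbs-5, the chymotrypsin-like one (K05C4.1, chromosome I, 14718992 to 14720482), had 224, 230 and 227 CPM in ethyl carbamate against 453, 447 and 397 CPM in control, a 1.91-fold fall. The trypsin-like subunit gene pbs-2 fell 1.82-fold. The caspase-like subunit gene pbs-1 (K08D12.1, chromosome IV, 1708804 to 1709753) had the smallest fall of the core, 1.67-fold, with 223, 213 and 212 CPM in ethyl carbamate against 384, 368 and 332 CPM in control. Its exposed libraries were again all below its control libraries. The structural subunit genes pbs-6, pbs-4 and pbs-3 fell 1.85-fold, 1.76-fold and 1.73-fold.

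In the base of the cap, 5 of the 6 ATPase genes fell almost equally and the sixth fell less. Their products form the ring that unfolds substrates and feeds them into the core. The falls of rpt-1, rpt-2, rpt-3, rpt-4 and rpt-5 were 1.82-fold, 1.79-fold, 1.84-fold, 1.85-fold and 1.82-fold. That of rpt-6 (Y49E10.1, chromosome III, 12370454 to 12372625) was 1.52-fold, the smallest among the 31 subunits, with 157, 161 and 160 CPM in ethyl carbamate against 249, 245 and 233 CPM in control. Its log2 fold change of −0.60 (SE 0.04, edgeR adjusted p = 9.26e-12) stands apart from −0.84 to −0.89 in the other ATPase genes, a difference that was not tested. The non-ATPase genes of the base were rpn-1 and rpn-2, whose products are scaffolds, and rpn-10, whose product is a ubiquitin receptor. They fell 1.82-fold, 1.63-fold and 1.77-fold. By count, rpn-1 (T22D1.9, chromosome IV, 6906415 to 6909913) was the most abundant member, with 336, 323 and 331 CPM in ethyl carbamate against 615, 610 and 578 CPM in control.

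All 8 lid genes fell, with a median log2 fold change of −0.73, nearer 0 than the medians of the 2 core rings and of the base ATPases. The gene rpn-7 (F49C12.8, chromosome IV, 9316631 to 9318212), for a structural lid subunit, had 216, 219 and 217 CPM in ethyl carbamate against 434, 444 and 430 CPM in control, a 2.01-fold fall (edgeR adjusted p = 1.13e-15). The fall of rpn-11 (K07D4.3, chromosome II, 4043061 to 4044330), the gene of the lid deubiquitinase, was 1.57-fold, with 204, 199 and 204 CPM in ethyl carbamate against 325, 322 and 305 CPM in control. These are the extremes of the lid, and in both the groups are separated. Next to rpn-11 stood rpn-6.1, whose overexpression is known to extend life span in C. elegans, with a fall of 1.58-fold. Falls of 1.63-fold, 1.64-fold and 1.68-fold were found for rpn-8, rpn-9 and rpn-12, and of 1.84-fold and 1.89-fold for rpn-5 and rpn-3.

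Core and cap thus fell by nearly the same amount. The median log2 fold change was −0.87 over the 14 core genes and −0.84 over the 17 cap genes. Within a library, the mean log2 CPM of the core genes minus that of the cap genes was −0.25, −0.24 and −0.29 in ethyl carbamate, against −0.16, −0.19 and −0.21 in control. All exposed libraries lay below all control libraries, and the mean difference between groups was −0.07 on the log2 scale, small beside the shared fall. This difference was not tested, since both gene sets were chosen with earlier results known. In FPKM (the authors' values, scaled by gene length and library size, which allow levels of different genes to be compared), the core genes summed to 2482 ± 28 in ethyl carbamate and 4711 ± 236 in control, and the cap genes to 2219 ± 20.9 in ethyl carbamate and 4026 ± 136 in control (SD, n = 3 each).

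Levels per length kept much the same order. The core genes lay between 124 and 254 FPKM in ethyl carbamate and between 246 and 440 FPKM in control, and the cap genes between 93.7 and 180 FPKM in ethyl carbamate and between 159 and 317 FPKM in control. In both groups pbs-1 was highest, at 254 ± 7.78 FPKM in ethyl carbamate and 440 ± 35.5 FPKM in control, followed by pas-5 at 218 ± 7.28 and 386 ± 21.1 FPKM (SD, n = 3 each). The lowest subunit gene in both was rpn-2, at 93.7 ± 3.71 FPKM in ethyl carbamate and 159 ± 3.76 FPKM in control. Of the 10 highest genes in each group, 9 were shared. The gene pbs-7 ranked 11 in ethyl carbamate and 6 in control, and rpn-11 ranked 7 in ethyl carbamate and 14 in control. The coefficient of variation across the 14 core genes was 20.4%, 17.6% and 18.8% in ethyl carbamate, against 17.2%, 17.6% and 15.7% in control, so the spread among subunits was of similar size in both groups.

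Genes as abundant as the proteasome fell as a whole, and the subunit genes fell further. In the control CPM range of the subunits (192 to 601) lay 880 other tested genes, of which 81.4% fell and 10.8% rose, and the exposed libraries lay below the control libraries for 81.5%. Their median log2 fold change was −0.37 and the middle 50% lay between −0.54 and −0.16. A fall as such was thus common at this abundance. In size, the median of the subunits minus theirs was −0.49 on the log2 scale, and 3.86% of the 880 genes fell further than that median. This difference was −0.48 for the core against the 400 genes in its own range and −0.47 for the cap. Among genes within 0.25 log2 units of its own control CPM, pbs-7 was undercut by 2.10% of 238 genes, rpt-6 by 17.9% of 392 and rpn-11 by 19.2% of 281, the highest share among the subunits. These shares describe the libraries and were not tested.

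**Figure D2:**
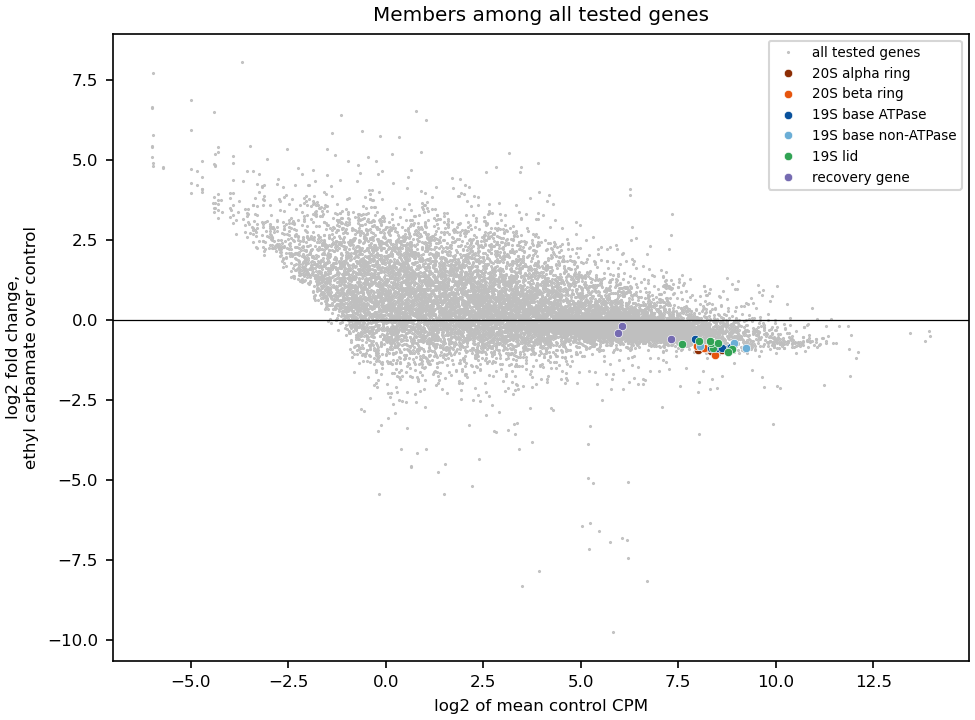
Log2 fold change of ethyl carbamate over control (vertical) against the log2 of the mean control CPM (horizontal) for all tested genes with reads in control (grey) and the 34 members (coloured). The subunit genes form a tight group at the lower edge of the cloud. The 3 recovery genes lie at lower abundance, png-1 near the middle of the cloud and ddi-1 and aip-1 below the middle.

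A normalization meant to remove shifts shared by genes of like average abundance (cyclic loess on log2 CPM, tested with limma) kept all 31 falls. The median log2 fold change of the subunits was then −0.53, with a range from −0.80 to −0.32, and the largest adjusted p was 2.46e-07 (limma). In the same fit 38.6% of all tested genes and 46.1% of the 880 genes of like abundance fell, and the median of the 880 was −0.05. The subunit median minus that of genes of like abundance was −0.48 in this fit.

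**Figure D3:**
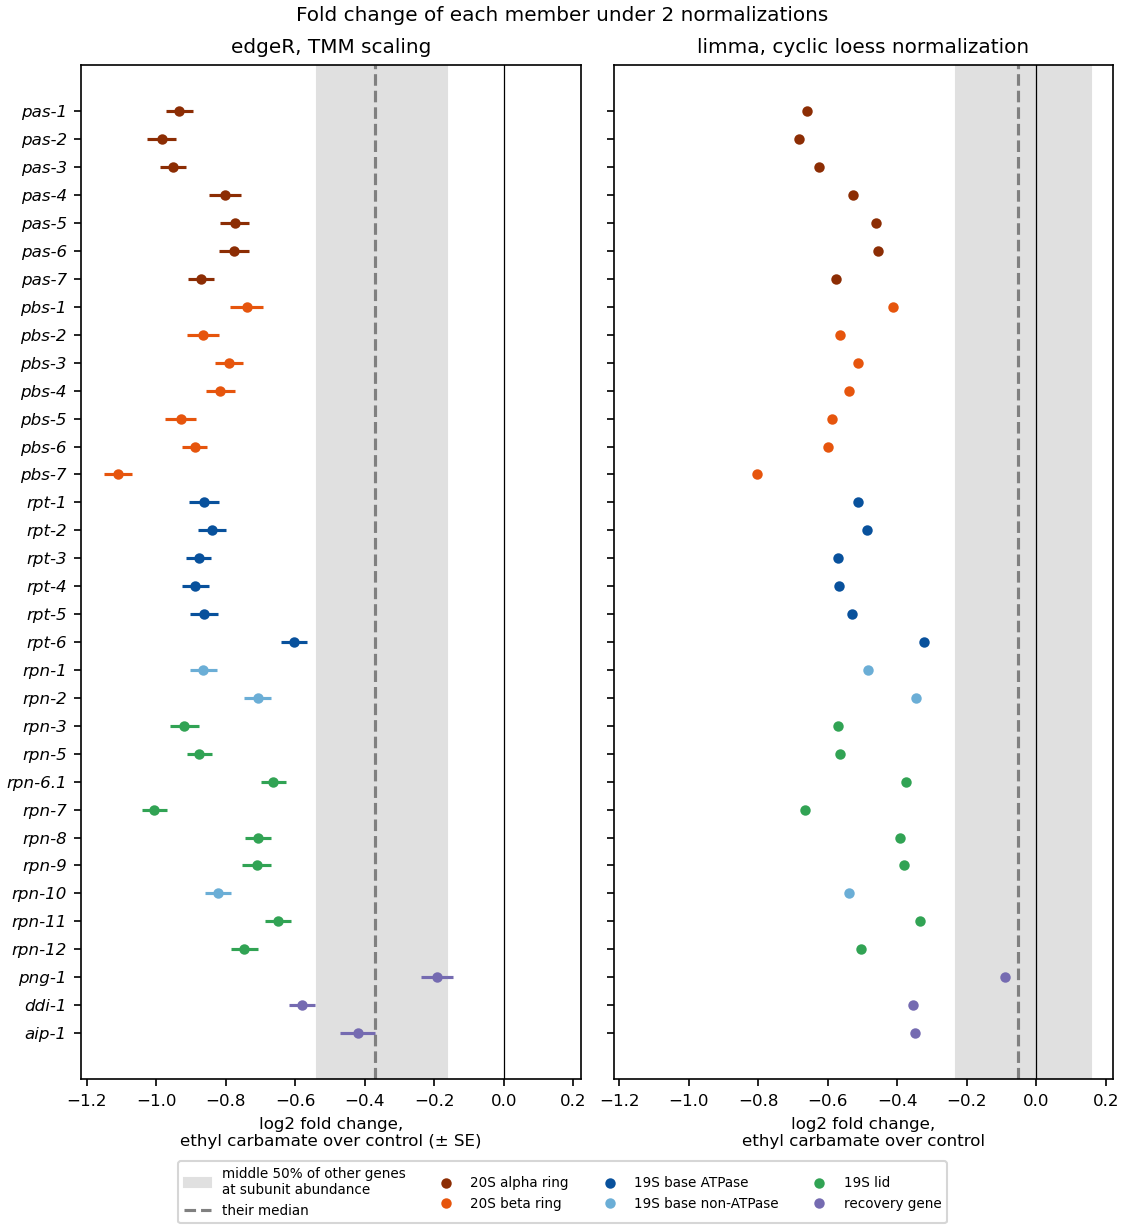
Log2 fold change of each member with TMM scaling (left, bars are standard errors) and after cyclic loess normalization (right), beside the median (dashed line) and the middle 50% (grey) of other genes in the control CPM range of the subunits. In both panels every subunit gene lies left of the dashed line, and png-1 lies right of it on the left panel and near it on the right.

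The 3 recovery genes fell less than any core gene. The gene ddi-1 (C01G5.6, chromosome IV, 6522874 to 6524568), for the aspartic protease that cuts SKN-1A, had 108, 103.9 and 110 CPM in ethyl carbamate against 157, 163 and 161 CPM in control. The groups were well apart, and the fall was 1.496-fold (log2 fold change −0.58, SE 0.04, edgeR adjusted p = 1.79e-11). The gene aip-1 (F58E10.4, chromosome V, 14012333 to 14013644), for an arsenite-inducible protein that binds the proteasome, had 49.02, 45.5 and 44.8 CPM in ethyl carbamate against 61.4, 62.3 and 62.6 CPM in control. Its fall was 1.34-fold (log2 fold change −0.42, SE 0.05, edgeR adjusted p = 1.81e-07). Among genes within 0.25 log2 units of the control CPM of each, 10.5% of 647 fell further than ddi-1. For aip-1 the share was 21.2% of 938. After cyclic loess the log2 fold changes of ddi-1 and aip-1 were −0.36 and −0.35, within the range of the subunits.

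The smallest difference was that of png-1 (F56G4.5, chromosome I, 11380229 to 11389238), for the N-glycanase that deglycosylates SKN-1A. It had 56.8, 60.3 and 58.0 CPM in ethyl carbamate against 65.0, 67.3 and 67.7 CPM in control, close but not overlapping. The log2 fold change was −0.19 (SE 0.05, edgeR adjusted p = 0.000819). Of the 995 other genes within 0.25 log2 units of its control CPM, 54.4% fell further, so its fall was of ordinary size for its abundance. The call was not made with scaling by library size (log2 fold change −0.0017), among genes of at least 5 FPKM (−0.08) or after cyclic loess (−0.09). In addition, png-1 shares 470 bases with aat-9 on the opposite strand, which had 92.4% as many control reads. Whether reads were counted by strand is not known, so reads from the shared bases cannot be told apart.

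Other genes of the pathway were listed beside the members. For comparison, 36.3% of all tested genes and 81.4% of other genes at subunit abundance fell. All genes with a log2 control CPM of 6 to 8 had a median of −0.28, and those above 8 had −0.45. Of 3 further subunit genes, all fell: rpn-13, for a ubiquitin receptor, to 168 ± 5.18 CPM in ethyl carbamate against 274 ± 7.18 CPM in control, rpn-6.2, a second rpn-6 gene, to 16.7 ± 0.457 against 29.5 ± 3.03 CPM, and dss-1, for the smallest lid component, to 125 ± 6.52 against 159 ± 7.66 CPM (SD, n = 3 each). Their log2 fold changes were −0.71, −0.81 and −0.35. Of 6 genes for regulators and assembly factors, 5 fell. The gene usp-14, for the deubiquitinase that docks on the cap, fell by the same measure as the subunits (log2 fold change −0.85, SE 0.04, edgeR adjusted p = 2.39e-14), and ubh-4, for the other cap deubiquitinase, by −0.56. The assembly chaperone gene psmd-9 (−0.25), and ecps-1 (−0.38) and ecps-2 (−0.66), homologs of the proteasome-binding protein ECM29, also fell. The akirin gene akir-1 was not called (log2 fold change −0.06, SE 0.04, edgeR adjusted p = 0.165). It was higher in ethyl carbamate after cyclic loess (0.25).

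Among 9 tested genes of the SKN-1A route and of endoplasmic reticulum associated degradation, 7 fell and none rose, with a median of −0.28. Of all tested genes 36.3% fell, and all genes with a log2 control CPM of 6 to 8 had a median of −0.28. With scaling by library size or after cyclic loess, 4 of the 9 fell and 2 rose. The gene of the factor itself, skn-1, had 238, 232 and 231 CPM in ethyl carbamate against 244, 242 and 242 CPM in control. The groups do not overlap but lie close, and the log2 fold change of −0.05 (SE 0.04) was not called (edgeR adjusted p = 0.173). Its direction depended on the processing, with 0.14 under scaling by library size and 0.25 after cyclic loess. The counts do not separate the transcript of SKN-1A from other skn-1 transcripts. The genes sel-1, hrdl-1 and sel-11, for parts of the ligase complexes that retrotranslocate proteins from the endoplasmic reticulum, fell by −0.41, −0.40 and −0.35 on the log2 scale.

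All 15 genes of the CDC-48 segregase, its cofactors and the ubiquitin shuttles fell, with a median log2 fold change of −0.46 (13 fell and 1 rose after cyclic loess). Of all tested genes 36.3% fell, and of other genes at subunit abundance 81.4%. CDC-48 is the ATPase that pulls ubiquitinated proteins out of membranes and complexes before they reach the proteasome. Its main gene cdc-48.1 fell to 648 ± 13.6 CPM in ethyl carbamate, against 1184 ± 38.8 CPM in control (log2 fold change −0.87, SE 0.04, edgeR adjusted p = 6.86e-14; SD, n = 3 each), a change of the size seen in the core. The second copy cdc-48.2 fell by −0.70, the ubiquitin chain elongation factor gene ufd-2 by −0.78 and the shuttle gene rad-23 by −0.59. The shuttle gene ubql-1 fell by −0.13 and turned to 0.14 after cyclic loess.

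Ubiquitin and its enzymes went both ways. Of 24 tested genes for ubiquitin, E1 and E2 enzymes, 14 fell and 5 rose, with a median of −0.23. Of all tested genes 36.3% fell and 40.0% rose, and of other genes at subunit abundance 81.4% fell and 10.8% rose. The polyubiquitin gene ubq-1 fell to 1444 ± 8.19 CPM in ethyl carbamate against 1680 ± 48.16 CPM in control (log2 fold change −0.22, edgeR adjusted p = 5.68e-05), but rose after cyclic loess (0.29). The gene ubq-2, which encodes ubiquitin fused to a ribosomal protein, fell by −0.68 and was not called on quantile-normalized FPKM (−0.03). The largest fall in this list was that of the E1 gene uba-1, named after its value was seen. It had 498 ± 4.47 CPM in ethyl carbamate against 927 ± 16.8 CPM in control (SD, n = 3 each). Its log2 fold change was −0.90 (SE 0.04, edgeR adjusted p = 1.5e-14). The largest rises in this list were in weakly expressed genes: ubc-22 (log2 fold change 1.72, 16, 25 and 19 reads in ethyl carbamate against 3, 11 and 2 in control, and 2.74 without control replicate 2), uev-2 (1.44) and ubc-17 (0.97), and none of these was called after cyclic loess. The call of uev-2 was also lost without control replicate 1 (1.04). Of 22 ubiquitin ligase genes 18 fell and 1 rose (median −0.35), against 81.4% falling among other genes at subunit abundance (median −0.37). The cullin scaffold gene cul-1, the adaptor gene skr-2 and the HECT ligase gene eel-1 fell most (−0.70, −0.65 and −0.61). The rise was that of hecd-1 (0.10), named after its value was seen, and it was not called with DESeq2 or without control replicate 2, control replicate 3 or ethyl carbamate replicate 1. After cyclic loess 11 of them fell and 4 rose. Of 18 tested genes for deubiquitinases outside the proteasome 15 fell and 1 (otub-2, 0.17, named after its value was seen) rose, with a median of −0.41. The largest falls within this list were those of usp-5 (−0.59), ubh-3 (−0.54) and usp-46 (−0.49). The ubiquitin-specific protease gene usp-4, which the list does not hold, fell by −0.87. It was picked for its likeness to the core profile, so a fall of this size follows from that choice.

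**Figure D4:**
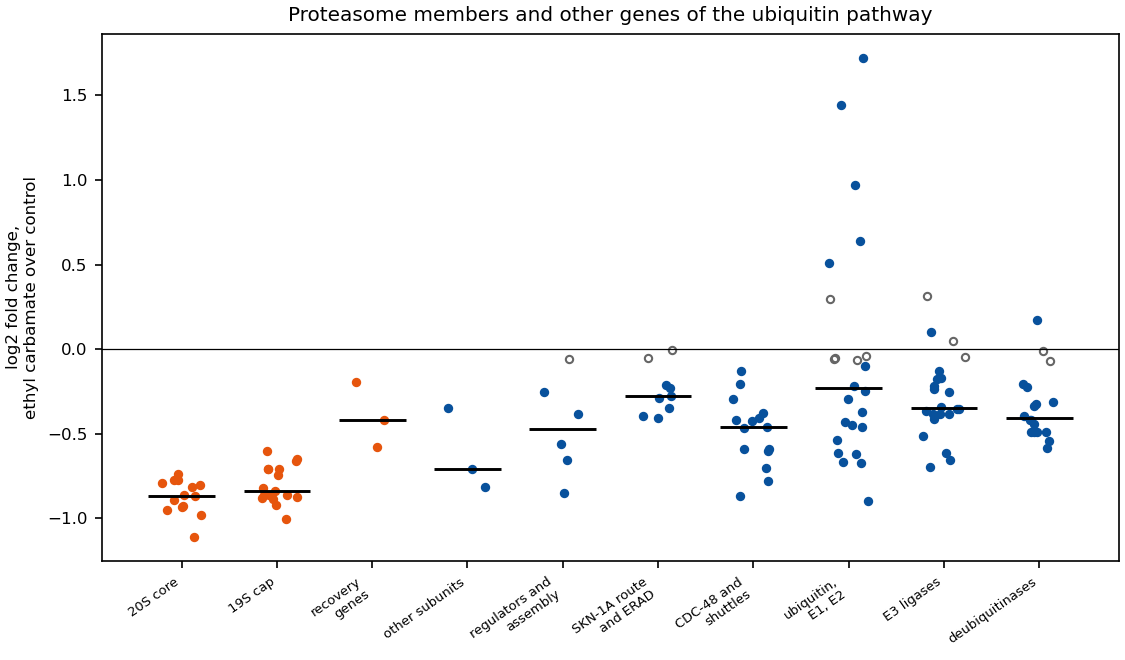
Log2 fold change of ethyl carbamate over control (vertical) for the 20S core, the 19S cap and the recovery genes (orange) and for 7 further lists (blue), one point per tested gene, filled where called and open grey where not, with list medians as black bars. The bars of core and cap lie at −0.87 and −0.84, and the bars of the other lists lie between −0.71 and −0.23.

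Tissue markers moved in the same libraries. All 14 germline and oocyte markers fell (median log2 fold change −0.43), where 36.3% of all tested genes fell. Of other genes at subunit abundance 81.4% fell, and all genes with a log2 control CPM above 8 had a median of −0.45. The summed level of the germline and oocyte markers was 7231 to 7374 CPM in ethyl carbamate and 9496 to 10238 CPM in control. After cyclic loess 7 of these markers fell and 2 rose. Markers of intestine rose in 5 of 8 genes, of body wall muscle in 4 of 5, of neurons in 9 of 10 and of pharynx in 6 of 6, with medians of 0.51, 0.65, 1.09 and 1.69, where 40.0% of all tested genes rose. After cyclic loess 6, 5, 10 and 6 of them rose. Summed marker levels in ethyl carbamate and in control were 2042 to 2273 and 1328 to 1433 CPM for intestine, 2825 to 2995 and 1795 to 1931 CPM for muscle, 608 to 645 and 457 to 480 CPM for neurons, and 545 to 612 and 154 to 185 CPM for pharynx. Of 5 epidermis markers 3 rose and 1, the adult cuticle collagen gene col-19, fell (log2 fold change −2.06). Their sums were 312 to 331 CPM in ethyl carbamate and 394 to 413 CPM in control, but without col-19 they were 269 to 282 CPM in ethyl carbamate and 217 CPM in each control library. Of 6 sperm markers only spe-41 had enough reads to be tested, and it fell (3.86 ± 0.56 CPM in ethyl carbamate against 7.45 ± 1.19 CPM in control; SD, n = 3 each). The other 5 had higher means in ethyl carbamate and summed to 1.19 to 2.20 CPM there, against 0.385 to 0.516 CPM in control. Up to 2 of them were called higher where leaving out a library brought them into the test. No marker was at 0 over all libraries. The part of these shifts in the fall of the subunit genes was not tested.

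Some further features of the members played no part in their choice. None of the 34 lies on the X chromosome, which holds 15.2% of tested genes, and 11 lie on chromosome I, with 15.8% of tested genes. The core genes are short, with a median deposited length of 953 bases (832 to 1239) and 3 exons in the longest transcript of the Ensembl annotation, and the cap genes have a median of 1487 bases and 4 exons, against 1291 bases and 6 exons for tested protein-coding genes. Of the 31 subunit genes, 9 overlap a gene on the opposite strand in the deposited coordinates. The overlaps of pbs-4 with mrrf-1 (296 bases) and of rpn-2 with sna-3 (206 bases) are the longest, and the partners had 4.17% and 38.9% as many control reads as the subunit gene. The authors' deposited table gives the same direction for all 34 members, with log2 fold changes of −1.16 for pbs-7, −0.66 for rpt-6 and −0.24 for png-1.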

How the data were processed

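Tools listed, without roles, in the submitters' processing notes are DESeq2 1.20.0, StringTie 1.3.3, HISAT2 2.0.5 and featureCounts 1.5.0-p3, while the design text has DEGSeq. For build, strand setting and multi-mapping reads, nothing is given in the sources used here. Per the file headers, the authors deposited raw counts beside FPKM, normalized counts (a signal equal to the counts divided by 1 size factor per library), log2 fold changes and adjusted p-values; which tool gave those p-values is unclear.

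The test of the counts in all 6 libraries used edgeR 4.0.16 under R 4.3.3 (TMM, filterByExpr, quasi-likelihood F test, two-sided, no covariate; 14705 genes tested, 7246 left out for low counts). CPM were computed here. Alternatives used DESeq2 1.42.0, limma 3.58.1 (FPKM with pseudocounts of 0.1, 0.5 and 1; log2 CPM with a prior count of 2 for cyclic loess), other scalings and filters, the replicate number as a block, and each library left out. Fold changes from FPKM include the pseudocount and so understate changes of low genes. On simulated data for this comparison (14705 genes), 50 genes per fold size were changed, irrespective of abundance. Of those, edgeR recovered 96% of the 4-fold, 80% of the 2-fold, 64% of the 1.5-fold and 50% of the 1.25-fold genes. It made 13 false calls. Far more genes were called in the real data, with changes that varied with abundance, so these rates need not hold there.

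The members and gene lists were chosen with earlier results of these data known, and no test was made over a list. All 34 members are named; of each other list, up to 3 called genes with the largest change and a few preset ones. Symbols came from RefSeq (WBcel235), with 21580 of 21951 identifiers matched; coordinates are the deposited ones, and 28 of 34 members lie within 200 bases of RefSeq at both ends. No library was a duplicate of another in its group (chi-square per gene 2.48 to 3.86). The design text states biological replicates; culture or plate origin was not given.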

Additional observations from a re-analysis of the deposited data

How the results depend on the processing

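All 31 subunit genes fell under each of the 18 alternatives tried, with log2 fold changes from −1.16 to −0.32. With libraries scaled by size only, all genes shifted by 0.19 in their median log2 fold change, 7215 genes rose and 3409 fell, against 5876 and 5344 with TMM scaling, and the core and cap medians were −0.68 and −0.65. They were −0.76 and −0.73 among genes of at least 5 FPKM, −0.70 and −0.66 on quantile-normalized FPKM (all genes shifted by −0.16, 39.3% of calls higher against 52.4%), and −0.57 and −0.50 after cyclic loess. Leaving out 1 library at a time gave core medians of −0.90 to −0.84 and cap medians of −0.88 to −0.82. With abundance taken as the mean over all 6 libraries, core and cap medians minus those of genes of like abundance were −0.55 and −0.54. The fall of png-1 lost its call with scaling by library size (−0.0017, edgeR adjusted p = 0.977), among genes of at least 5 FPKM (−0.084, edgeR adjusted p = 0.0955) and after cyclic loess (−0.090, limma adjusted p = 0.0844). Signs turned, to the following log2 fold changes, with scaling by library size for akir-1 (0.13), skn-1 (0.14) and ubql-1 (0.059); among genes of at least 5 FPKM for akir-1 (0.051) and skn-1 (0.054); on quantile-normalized FPKM for akir-1 (0.12), skn-1 (0.14), ubql-1 (0.077) and ubc-17 (−0.14); and after cyclic loess for akir-1 (0.25), skn-1 (0.25), ubql-1 (0.14) and ubq-1 (0.29). The cause was not tested. With the replicate block, 5851 genes rose and 5345 fell, all 14 core and 17 cap genes fell, and the core and cap medians were −0.87 and −0.84. Deviations of same-numbered libraries from their group means correlated at −0.006, −0.004 and −0.012, so no shared deviation was seen. These values cannot tell whether same-numbered libraries were prepared together. With 3 libraries per group and a single exposure, batch effects within a group cannot be told apart from biological spread. A difference in culture or handling between exposed and control animals, if there was one, cannot be told apart from the exposure.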

Other observations

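Some subunit genes sit close to other genes on the same strand. Within 500 bases, 15 of the 34 members had 17 such protein-coding neighbours, of which 16 had enough reads to be tested, 14 fell and 1 rose, with a median log2 fold change of −0.27; of all tested genes 36.3% fell and 40.0% rose. The 7 neighbours with a log2 control CPM of 6 to 8 had a median of −0.29, against −0.28 for all genes of that abundance, and the 7 at 4 to 6 had −0.27, against −0.08. These medians were not tested. Of the 16, 2 fell further than the member beside them. These were K07A12.5 beside pbs-7 (log2 fold change −1.23, but only 2.89 CPM in control) and wbp-4 beside png-1 (−0.24). The neighbours of pas-2 and pas-3 fell less than these members (log2 fold changes −0.98 and −0.95). Beside pas-2, D1054.3, at 96 bases, fell to 66.7 ± 2.13 CPM in ethyl carbamate against 110 ± 3.40 CPM in control (log2 fold change −0.72). Beside pas-3, chp-1, at 190 bases, fell to 58.4 ± 1.02 against 96.2 ± 0.60 CPM (−0.72, ± SD, n = 3 each). Other neighbours stood further from their members: dhs-22, 4 bases downstream of pas-1, had a log2 fold change of −0.19. The gene mans-2, upstream of rpt-1, had 0.03 (edgeR adjusted p = 0.701), and C02F5.12, 115 bases downstream of pbs-6, rose (0.93, edgeR adjusted p = 4.82e-09). These neighbours were named after their values were seen.

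The 5 genes outside the members whose profile over the 6 libraries was most like the mean of the core, by Euclidean distance between centred log2 CPM values, were cdc-48.1 (0.032), daf-41 (0.034), W08E12.7 (0.044), ZC434.8 (0.052) and usp-4 (0.053). The gene daf-41 encodes the p23 cochaperone of HSP-90, and had 367 CPM in ethyl carbamate and 665 CPM in control. These distances are a description and were not tested.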
